A study of Mus musculus with 2 samples.

Results

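Among cells sorted from the adult mouse thymus on surface CD64, 138 of 3188 kept cells (4.33%, exact binomial 95% interval 3.65% to 5.09%) met a rule for mature neutrophils. The members were chosen by measured values. Cells below 500 UMIs (counted molecules) or 300 detected genes, or with more than 10% of their UMIs from mitochondrial genes, were set aside first. A member had at least 2% of its UMIs from S100a8 and S100a9, which encode the calcium-binding calprotectin subunits, less than 1% from the granule protein genes Camp, Ngp and Ltf, and at least 2 UMIs of Retnlg, Csf3r and Cxcr2 together. These 8 genes are called the gating genes. They describe how the cells were picked, and were left out of the ratios between sets and of the gene lists. Where their values are given below, they are a description only.

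The study measured single-cell transcriptomes of the thymus of adult C57BL/6 mice (C57BL/6J in the series' design text). The organ was digested enzymatically, CD64-positive cells were sorted by flow cytometry and 10x Genomics 3′ libraries were made. The labels give 2 libraries, from 2021 and 2024, with the tissue Thymus and the cell type Macrophage for both, and no treatment or genotype apart from the strain. Age is given only as adult, and the number of animals behind a library is not stated. The 2024 library (2815 barcodes, 24569270 UMIs) was used for its depth only, because no gene list for it was used here. Barcodes shared with the 2024 library were not counted for the same reason. Every gene value below comes from the 2021 library (3214 barcodes, 8534578 UMIs, 502 to 18653 UMIs per barcode). With 1 library no replicate error can be had and no test was made. All intervals are exact, at the 95% level, and cover counting error only.

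Neutrophils are short-lived granulocytes that are made in the bone marrow and enter tissues from the blood. Their granules are filled in sequence during maturation, first with primary granule proteases such as elastase, then with secondary granule proteins such as lactoferrin and lipocalin 2, and last with tertiary granule enzymes such as gelatinase. Transcripts of the early granule proteins are lost as the cells mature, while receptors for chemoattractants and for the growth factor G-CSF are gained. Stimulated neutrophils transcribe interleukin 1β and chemokines that draw in further leukocytes.

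Members were compared with 3 other sets of kept cells. The rest comprised the 2722 other cells with less than 1% of their UMIs from Camp, Ngp and Ltf. The granule-rich cells were the 328 cells with 1% or more from these genes, the transcripts of less mature neutrophils. The monocyte-gated cells were 150 cells of the rest with Ly6c2 and Csf1r transcripts and no C1q transcripts. Members had a median of 1229 UMIs (516 to 6997) and 433 genes, against 2228 UMIs in the rest, 2430.5 in the granule-rich cells and 2537 in the monocyte-gated cells. After every cell was thinned to 1000 UMIs, which left out 49 members, members still had fewer genes, with a median of 349 against 539 in the rest and 557 in the monocyte-gated cells, and nearly as many as the granule-rich cells (353.5). Levels are given as CPM: a gene's UMIs were summed over the cells of a set and scaled to 1e6 UMIs of the genes outside the gate. The gating genes held 30.9% of the UMIs of members, 46.0% of those of granule-rich cells and 0.167% of those of the rest.

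**Figure D1:**
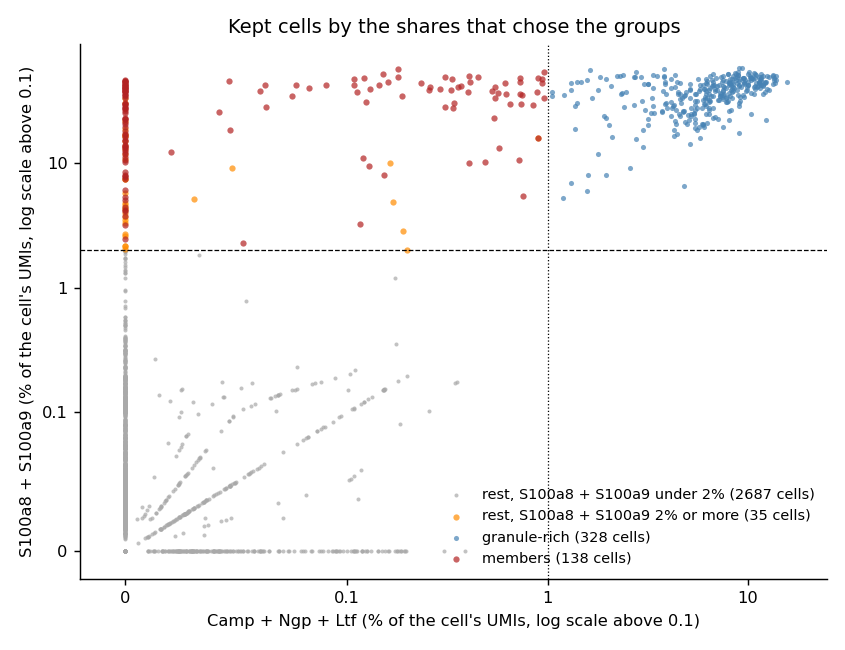
Each point is a kept cell, placed by the share of its UMIs from Camp, Ngp and Ltf (horizontal) and from S100a8 and S100a9 (vertical), both on a scale that is linear up to 0.1% and logarithmic above. The dashed line is the 2% limit and the dotted line the 1% limit that chose the 138 members (red) and the 328 granule-rich cells (blue). The 35 cells in orange passed both limits and had fewer than 2 UMIs of Retnlg, Csf3r and Cxcr2.

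The members carried, in part, the neutrophil markers that the rule did not use. These markers were chosen with earlier results of these data known, so their levels are a description. Clec4d, a C-type lectin receptor of myeloid cells, had a UMI in 33.3% of members and 2.17% of the rest. Stfa2l1, a stefin A protease inhibitor gene, had one in 21.0% and 0.184%. Acod1, which encodes the enzyme that makes itaconate in stimulated myeloid cells, gave 14 UMIs in 13 members. Of these 3 markers 142 UMIs lay in 70 members, at 1018 CPM together against 14.9 CPM in the rest, 73.3 CPM in the granule-rich cells and 0 UMIs in 315 T cell-gated cells, which had 2 or more UMIs of Cd3 genes. No control condition was analysed here against which the cells could be called inflammatory. Fcgr1, which encodes the CD64 used for sorting, gave 2 UMIs in all 138 members, 14.3 CPM (95% interval 1.74 to 51.8), and 35.9 CPM in the rest. The label Macrophage did not describe these cells: 12 of the 138 had a UMI of the macrophage list. Surface protein was not measured. No member had a UMI of the 6 B lineage, 5 mast cell and basophil, 4 platelet, 4 epithelial or 5 fibroblast and endothelial markers. With 3 cells taken for 0 of 138, an approximate limit on the share of cells with a UMI is 2.17% for each. This is no limit on cells that express them.

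Transcripts of other lineages were present in 18 of the 138 members. These cells had 3 or more UMIs of the macrophage, dendritic cell, T cell or NK cell marker lists, or 5 or more of H2-Aa, H2-Ab1, H2-Eb1 and Cd74, a limit chosen after the cells were seen. They held 29.7% of the members' UMIs outside the gating genes, with a median of 2366 UMIs against 1199 in the other 120 members. Ribosomal protein genes took 19.5% of these UMIs in the 18 cells and 6.36% in the 120. Of the macrophage list, 5 of 8 markers were above 0 in members, with Mertk, Timd4 and Cd5l at 0, and its summed level was 1398 CPM in the 18 cells, 40.8 CPM in the 120 and 1465 CPM in the rest. The T lineage list had 8 of 10 markers above 0, with Trbc1 and Themis at 0, and 747 CPM in the 18 cells against 61.2 CPM in the 120. Conventional dendritic cell, plasmacytoid dendritic cell and NK markers gave 1, 0 and 2 UMIs in the 120 cells, and 579, 338 and 772 CPM in the 18. The split used these lists, so their differences between the 18 and the 120 follow from it and are no result. The classical monocyte list was at 1678 CPM in members, 1929 CPM in the 120 cells, 1468 CPM in the rest and 4410 CPM in monocyte-gated cells, which were chosen by Ly6c2 and Csf1r, both genes of that list. Of members' UMIs of the list, 196 of 234 were of Ly6c2, which neutrophils and monocytes share, with 7 of Ccr2, 3 of Fn1 and 1 of F13a1. The doublet score of Scrublet had a median of 0.111 in the 18 cells and 0.0168 in the 120. Scrublet called only 3 cells in the library, too few for it to have worked, and the 18 cells were also deeper. Whether these cells are doublets was not tested. For several genes and lists the value over the 120 cells is given beside that over all members.

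Against the rest, members were higher in genes of late granules, of chemoattractant and pattern recognition receptors and of the stefin A cluster, and lower in ribosomal protein, antigen presentation and lymphoid genes. Of 3461 genes compared, 1082 (31.3%) were at least 2-fold higher in members and 881 (25.5%) at least 2-fold lower, with a median log2 ratio of 0.18 over all of them. A gene was compared with at least 15 UMIs in both sets together and 50 CPM in either. With CPM taken over all UMIs, gating genes included, 595 were higher and 1292 lower. The counts describe the size of ratios and no test stands behind them.

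The 20 genes with the largest ratio over the rest, among those with 100 CPM or more and a UMI in at least 10% of members, were led by Cstdc4 (ENSMUSG00000079597), a stefin A family gene. It gave 1377 CPM (95% interval 1189 to 1586) in members and 1.38 CPM (95% interval 0.662 to 2.54) in the rest, a log2 ratio of 9.96 (95% interval 9.05 to 11.04). Il1f9, which encodes the cytokine interleukin 36γ, followed with 602 CPM against 0.690 CPM, a log2 ratio of 9.77 (95% interval 8.49 to 11.43). They gave 10 and 5 UMIs in all 2722 cells of the rest.

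Granule and secreted products made up a large part of these genes. Mmp9 (ENSMUSG00000017737), the gelatinase of tertiary granules, had a UMI in 84.1% of members and 1.32% of the rest, with 3097 CPM (95% interval 2812 to 3404) against 6.63 CPM. Mmp8, the neutrophil collagenase, gave 2659.9 CPM against 12.4, and Lcn2, lipocalin 2, which binds iron-carrying siderophores, gave 5771 CPM against 27.3. Wfdc21, a small secreted protein with a whey acidic protein domain, reached 5040.1 CPM against 15.2. Chil1, a chitinase-like lectin, and Lrg1, a leucine-rich glycoprotein of neutrophil granules, were at 351 and 846 CPM in members and at 0.690 and 3.87 CPM in the rest. Ly6g, the surface antigen by which mouse neutrophils are stained, was found in 23.2% of members and 0.331% of the rest.

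Receptors and enzymes formed the other group. Fpr1, a receptor for bacterial formyl peptides, gave 344 CPM against 2.07, and Trem1, a receptor that amplifies inflammatory signals, 552 against 5.94. Mrgpra2b, a receptor of the Mas-related family, gave 480.4 CPM against 0.690. Hdc, the enzyme that makes histamine, was detected in 58.7% of members, at 1140.0 CPM against 9.80. G0s2, an inhibitor of triglyceride lipase, gave 1104 CPM against 10.6, and Arg2, the mitochondrial arginase, 251 against 2.49. Slfn4, an interferon-inducible gene of the schlafen family, gave 1613 CPM against 8.29. The remaining genes were Stfa2l1, Ceacam10, Dhrs9 and the long noncoding RNA Mirt2, at 136 to 466 CPM in members and at most 1.24 CPM in the rest.

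**Figure D2:**
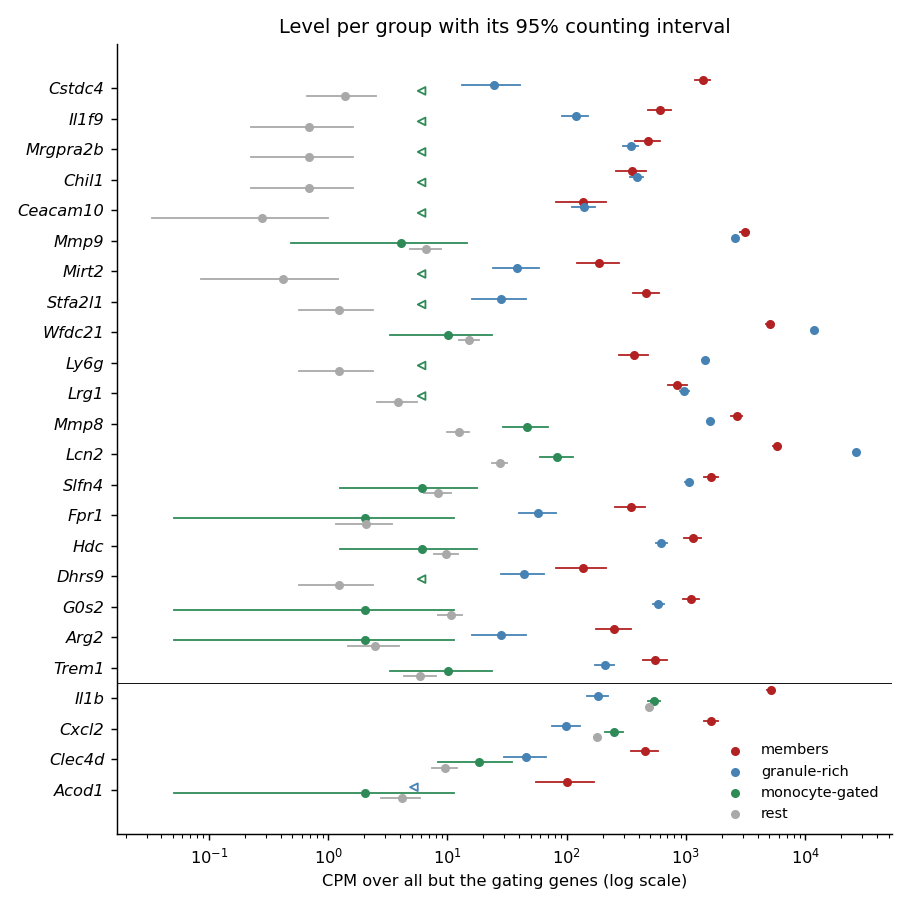
Level of the 20 genes with the largest ratio over the rest, and below the line Il1b, Cxcl2, Clec4d and Acod1, in CPM over all but the gating genes (logarithmic axis). Points are sums over the cells of a set, bars the exact 95% counting interval, and open triangles stand at 3 counts for a set with 0 UMIs. Members (red) lie right of the rest (grey) and of the monocyte-gated cells (green) throughout, whereas Wfdc21, Ly6g and Lcn2 are higher in the granule-rich cells (blue) beyond the intervals.

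The 10 genes with the smallest ratio among those with 100 CPM or more in the rest had 0 to 4 UMIs in members. Jchain, the joining chain of polymeric antibodies, was at 0 in members and 279.6 CPM in the rest, although only 1.03% of the rest had a UMI of it. With 3 counts taken for the 0, Jchain was 13-fold lower in members, with a 95% upper limit of -3.40 on the log2 ratio. Ly6d, a surface protein of lymphoid cells, gave 2 UMIs and 307 CPM in the rest. Ms4a4c and Ms4a6b, membrane proteins of monocytes and lymphocytes, gave 2 UMIs each, 14.3 CPM, against 302 and 179 CPM. The others act in basic cell functions: Fbl in the nucleolus, Cct2 in protein folding, Lsm7 in RNA processing, H2afx as a histone, Manf in the endoplasmic reticulum and Svbp with tubulin carboxypeptidases. The log2 ratio of Fbl was -4.11 (95% interval -9.42 to -1.63), an interval as wide as 1 UMI in members makes it. None of the 2 UMIs each of Ly6d, Ms4a4c, Ms4a6b and H2afx lay in the 120 members without transcripts of other lineages.

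The most abundant transcripts outside the gating genes were those of Tmsb4x (40673 CPM), Actb (23401 CPM), S100a6 (16354 CPM), Ifi27l2a (15479 CPM) and Malat1 (12604 CPM), followed by S100a11, Fau, Tyrobp, Fth1 and Ifitm3. Tmsb4x and Actb encode the cytoskeletal proteins thymosin β4 and β-actin, S100a6 and S100a11 further calcium-binding S100 proteins, and Ifi27l2a an interferon-inducible protein. Ribosomal protein genes held 10.3% of the members' UMIs against 24.9% in the rest and 10.2% in the granule-rich cells.

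The promoters of Mmp8 and Lcn2 are shown as genes that hold the C/EBP letters searched here, that of Il1b as the cytokine gene with the most UMIs, and that of Cxcl2 as the chemokine gene with the largest ratio over the rest. Of the 20 genes, 16 had a window from 250 bases before to 50 bases after a start site in RefSeq (GRCm38.p6). Mmp8, Lcn2 and Ly6g (3 of 16, 18.8%) held TTGCNNAA, letters bound by C/EBP factors, on either strand, against 12.2% of the 27025 genes in the table. The κB motif, searched on both strands, was in 1 of the 16 windows (6.25%, Chil1) and in 6.55% of all genes, and it was also in the window of the chemokine gene Cxcl2. No match of either overlapped another in the windows shown. The window of Il1b held neither. Capitals mark the C/EBP letters in Mmp8 (chr9:7558179-7558478, plus strand, match 19 bases before the start) and Lcn2 (chr2:32387690-32387989, minus strand, 216 bases before), and the κB letters in Cxcl2 (chr5:90903649-90903948, plus strand, 97 bases before). The window of Il1b is chr2:129371090-129371389 on the minus strand. All run 5′ to 3′ on the gene's strand.
Mmp8: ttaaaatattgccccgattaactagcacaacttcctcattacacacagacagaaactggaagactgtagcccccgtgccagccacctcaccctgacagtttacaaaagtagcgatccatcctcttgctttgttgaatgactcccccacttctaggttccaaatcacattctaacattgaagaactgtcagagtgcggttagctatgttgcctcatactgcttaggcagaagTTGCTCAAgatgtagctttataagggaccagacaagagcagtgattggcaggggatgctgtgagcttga
Lcn2: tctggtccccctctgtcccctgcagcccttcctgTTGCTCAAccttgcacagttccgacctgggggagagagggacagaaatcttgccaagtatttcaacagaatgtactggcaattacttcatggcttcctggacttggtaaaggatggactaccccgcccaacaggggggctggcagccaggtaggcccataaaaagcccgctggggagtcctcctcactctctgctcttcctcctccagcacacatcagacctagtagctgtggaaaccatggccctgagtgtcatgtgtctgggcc
Cxcl2: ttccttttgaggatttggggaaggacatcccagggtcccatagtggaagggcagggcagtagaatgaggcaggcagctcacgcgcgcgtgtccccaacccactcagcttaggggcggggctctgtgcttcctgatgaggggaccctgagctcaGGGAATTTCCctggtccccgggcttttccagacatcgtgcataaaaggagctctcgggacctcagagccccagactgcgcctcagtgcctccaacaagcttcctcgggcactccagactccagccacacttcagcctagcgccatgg
Il1b: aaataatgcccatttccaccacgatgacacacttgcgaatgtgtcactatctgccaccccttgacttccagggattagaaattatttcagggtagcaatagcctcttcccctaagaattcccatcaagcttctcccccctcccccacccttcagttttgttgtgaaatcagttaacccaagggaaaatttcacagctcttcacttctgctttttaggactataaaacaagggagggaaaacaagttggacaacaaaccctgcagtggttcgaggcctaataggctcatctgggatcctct
A match is a run of letters in the window and no binding was measured.

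Lists of genes with known roles were then read in order of the neutrophil's life. They were chosen with results of these data known, and each is described by how many of its compared genes passed 2-fold and by its median log2 ratio, beside 31.3% higher, 25.5% lower and a median of 0.18 over all genes. Genes that stayed under 50 CPM in both sets drop out, so the counts do not cover all genes of a list. Of the 7 primary granule genes 2 were compared and both were lower in members: Prtn3, proteinase 3, with 2 UMIs, and Nkg7, a cytotoxic granule gene that NK and T cells also express, at 50.2 against 255 CPM. Elane, neutrophil elastase, gave 1 UMI and Mpo, Ctsg and Ms4a3 gave 0. Of 7 secondary granule genes outside the gate 4 were compared, all higher in members, with a median of 6.54. Of 12 tertiary granule and secretory vesicle genes 11 were compared and 10 were higher, with a median of 4.13. The exception was Lyz2, lysozyme, at 6897 CPM in members and 5048 CPM in the rest. Slpi, an inhibitor of leukocyte proteases, was at 4194 against 171 CPM and Pglyrp1, a peptidoglycan-binding protein, at 3248 against 69.6 CPM.

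Receptors by which neutrophils find and recognise a target were higher as groups. Of 14 chemoattractant receptor genes 11 were compared, 9 higher and 1 lower (median log2 ratio 4.05). C5ar1, the receptor of complement C5a, gave 624 CPM against 8.98, and Cxcr4, which holds neutrophils in the bone marrow, 860.3 against 132. The lower gene was Ccr2, the monocyte chemokine receptor, with 50.2 against 278 CPM, and 10.2 CPM over the 120 cells. Of 12 pattern recognition genes 11 were higher and 0 lower (median 3.0). Clec4e, which senses mycobacterial glycolipids, gave 1018 CPM against 36.5, and Clec4d, its partner, 452 CPM (95% interval 347 to 578) against 9.53 CPM. Of 14 Fc and paired receptor genes 13 were compared, 11 higher and 1 lower (median 2.18). Fcgr4 and Fcgr3, activating IgG receptors, gave 215 and 308 CPM against 13.8 and 60.9, while the inhibitory receptor gene Fcgr2b gave 50.2 CPM (10.2 over the 120 cells) against 129. Of 11 adhesion genes 8 were higher and 1 lower (median 1.84), with Cd44, a hyaluronan receptor, at 774 against 170.1 CPM. Of 7 NADPH oxidase genes 6 were compared, 4 higher and 0 lower, with Ncf1 at 445 against 68.8 CPM. Of 17 cytokine receptor genes 14 were compared, 6 higher and 0 lower (median 0.54). Il1r2, the decoy receptor of interleukin 1, gave 387 CPM against 13.8, and Il17ra, the receptor of interleukin 17, 323 against 62.6.

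Interleukin 1β was the cytokine transcript with the most UMIs in the lists. Il1b (ENSMUSG00000027398; chromosome 2, 129364570 to 129371139, minus strand, GRCm38) had 715 UMIs in members, a UMI in 67.4% of them, and 5126 CPM (95% interval 4757 to 5516) against 489 CPM (95% interval 473 to 505) in the rest, a log2 ratio of 3.39 (95% interval 3.27 to 3.51). Il1rn, which encodes its natural receptor antagonist, gave 574 CPM against 51.5, and Nlrp3, the inflammasome sensor, 194 against 24.4. Pycard, the inflammasome adaptor, was lower, with 129 (81.6 over the 120 cells) against 282 CPM. Over the list 6 of 10 genes were compared, 4 higher and 1 lower. Of 14 genes of NF-κB and activation 12 were compared, 6 higher and 1 lower (median 0.56). Nfkbia, Tnfaip3 and Sod2, common targets of NF-κB, were within 2-fold of the rest in all 138 members, with Nfkbia at 466 against 451 CPM. Sod2 was at 136 CPM in the 138, 40.8 in the 120 and 132 in the rest, and Tnfaip3 at 172, 112 and 170.0 CPM. Acod1 was at 100.4 CPM (95% interval 54.9 to 168) against 4.14 CPM, and Osm, the cytokine oncostatin M, at 287 against 33.8 CPM.

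Chemokine transcripts were uneven. Of 13 genes 9 were compared, 2 higher and 5 lower (median -1.61, and 1.76 where the rest is taken as the median over its clusters). The 2 higher genes were Cxcl2, which draws neutrophils through Cxcr2, at 1635 CPM (95% interval 1429 to 1861) against 181 CPM, and Ccl6 at 1047 against 182 CPM. The 10 members with most UMIs held 64.5% of the Cxcl2 UMIs. Ccl5, a T and NK cell chemokine, gave 79 UMIs, of which 57 lay in 1 cell, and 40.8 CPM over the 120 members. Ccl2, Cxcl1, Cxcl3 and Cxcl9 were at 0 UMIs in members, for which the 95% upper limit is 26.4 CPM.

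Of 23 interferon-inducible genes 22 were compared, 19 higher and 0 lower, with a median of 2.31. Ifi47, the interferon-inducible GTPase gene with the smallest ratio, was at 28.7 against 56.9 CPM, just within 2-fold. Isg15, a ubiquitin-like modifier, gave 1807 CPM against 359, and Ifitm1, a membrane protein that restricts viral entry, 1455 against 49.6. Cmpk2, a nucleotide kinase next to the viperin gene, gave 136 CPM against 12.7. These values compare sets of cells within 1 suspension.

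Antigen presentation genes depended on the 18 cells. All 7 MHC class II genes were lower in members than in the rest, with a median of -1.95, and of -5.79 over the 120 cells. Of the members' 1117 UMIs of these genes, 95.5% lay in 14 cells, and the 120 cells held 57. Cd74, the invariant chain, gave 3692 CPM in the 138 members, 347 CPM in the 120 and 14299.7 CPM in the rest. Where the rest is taken as the median over its clusters the list's median was 0.42 for the 138 members.

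Cell division genes were sparse in members. Of 9 such genes 5 were compared with the rest, 4 lower and 0 higher (median -1.53, and -2.62 over the 120 cells), and 81 UMIs in all lay in 18 members, 30 of them in 11 of the 120 cells. With the rest taken as the median over its clusters, the median was 0.20. Among 18 transcription factor genes 16 were compared, 5 higher and 2 lower, with a median of -0.06 that takes either sign across the alternatives tried. Cebpd and Cebpb, C/EBP factors of myeloid cells, gave 538 and 1699 CPM against 71.7 and 751, and Klf2, a zinc finger factor, 1757 against 486. Irf8, a factor of monocytes and dendritic cells, gave 50.2 CPM (10.2 over the 120 cells) against 209. Among 13 survival and cell death genes 10 were compared, 2 higher and 2 lower. Mcl1, on which neutrophil survival depends, was at 1764 against 448 CPM, and Fas, a death receptor, at 122 against 21.3 CPM. Bax, which permeabilises mitochondria, was at 108 (61.2 over the 120 cells) against 279 CPM. Of 13 glycolysis genes 10 were compared, 6 higher and 0 lower, with Hk3, a hexokinase, at 308 against 11.2 CPM. Of 9 lipid mediator genes 3 were compared and all were higher, with Alox5, the lipoxygenase that starts leukotriene synthesis, at 179 against 4.14 CPM. Genes induced by tissue digestion were also read: of 8 compared, 2 were higher and 0 lower, Dusp1 at 3011 against 549 CPM and Ier2 at 731 against 351 CPM, and their part in the other values was not tested.

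**Figure D3:**
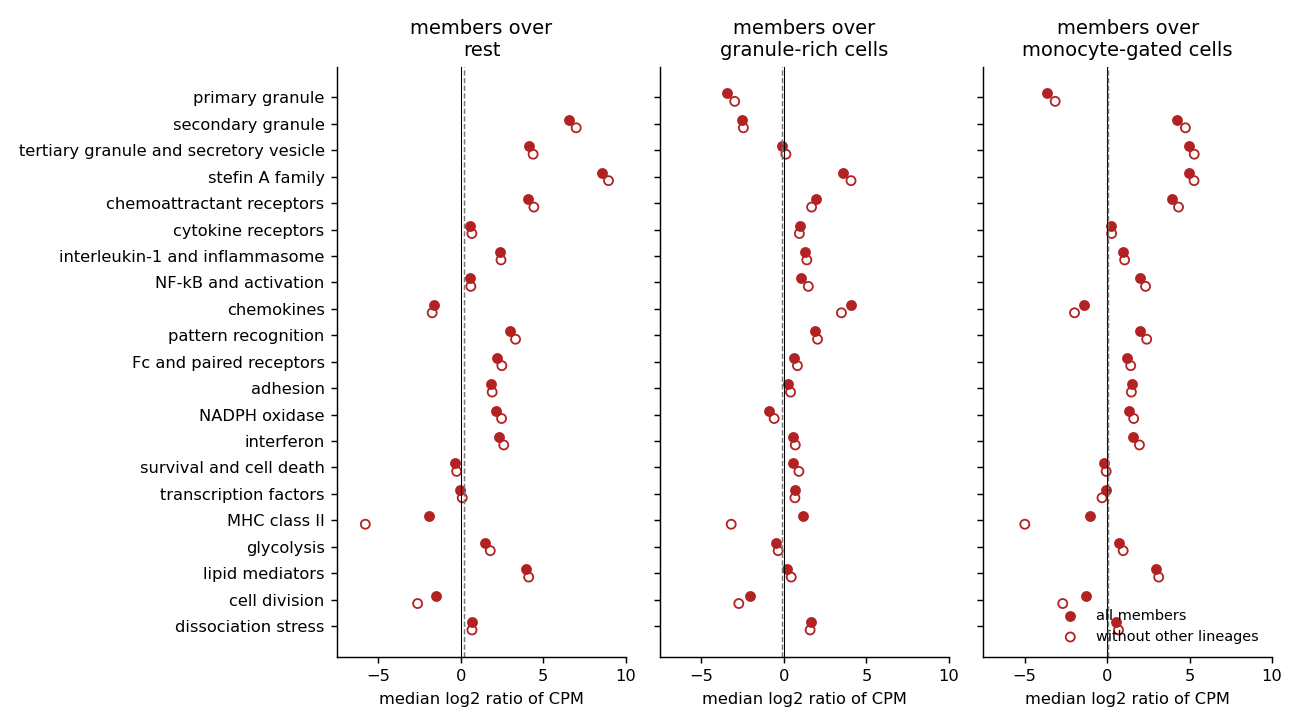
Median log2 ratio of CPM over the compared genes of 21 lists, for members over the rest, over granule-rich cells and over monocyte-gated cells. Filled points use the 138 members and open points the 120 without transcripts of other lineages, and the dashed line is the median of all genes compared. A list with fewer than 3 compared genes has no point. The secondary and tertiary granule lists lie right of 0 against the rest, while against the granule-rich cells the secondary list lies left of 0 and the tertiary list near it. The MHC class II points move left without the 18 cells, which were set apart in part by their class II UMIs.

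Against the granule-rich cells, members had few early granule transcripts and more of the inflammatory cytokine and stefin genes. Of 3401 genes compared, 485 (14.3%) were at least 2-fold higher in members and 660 (19.4%) at least 2-fold lower, with a median log2 ratio of -0.10. With CPM over all UMIs 560 were higher and 194 lower. The rule separates these sets by Camp, Ngp and Ltf, and other granule genes follow these 3 during maturation, so their direction is not independent of the rule.

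The lower genes were led by primary granule genes. Elane gave 1 UMI in members and 1162 CPM in granule-rich cells, a log2 ratio of -7.34 (95% interval -12.65 to -4.86), and Prtn3 2 UMIs and 1216 CPM. In the granule-rich set only 6.40% of cells had an Elane UMI. Fcnb, ficolin B, Chil3, a chitinase-like protein, and Serpinb1a, an elastase inhibitor, gave 7.17, 258 and 35.8 CPM in members against 556, 7487 and 897 CPM. All 7 primary and all 7 secondary granule genes were lower, with medians of -3.45 and -2.55. Lta4h, which makes the chemoattractant leukotriene B4, gave 2 UMIs in members and 647 CPM in granule-rich cells, and Ltb4r1, the leukotriene B4 receptor gene, gave 136 against 727 CPM. Zmpste24, Tmem216, Lpgat1 and Trp53inp2, with 1 UMI each in members, completed the 10 genes with the smallest ratio. Cebpe, the C/EBP factor of secondary granule genes, gave 50.2 CPM against 766.

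Tertiary granule transcripts had no one direction over this list. Of 11 compared genes 1 was higher, 2 lower and 8 within 2-fold, the summed level was 24047 CPM in members and 34049 CPM in granule-rich cells, and the median of -0.13 became 0.12 over the 120 cells, 0.22 with CPM over all UMIs, -0.21 with cells thinned to 1000 UMIs and -0.55 as the mean of the cells' CPM. Mmp9 was at 3097 against 2597 CPM, a log2 ratio of 0.25 (95% interval 0.10 to 0.41). The gene above 2-fold was Slpi, with 4194 against 773 CPM, and those below were Lyz2, at 6897 against 15486 CPM, and Anxa1, annexin A1, at 1032 against 4007 CPM. Among the NADPH oxidase genes, which make the oxidative burst, 3 of 7 were lower and 0 higher. Cybb, the catalytic subunit, was at 437 against 2597 CPM, and Ncf1 at 445 against 1200.1 CPM.

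The 10 genes with the largest ratio over granule-rich cells held cytokines and chemokines. Il1b was at 5126 CPM (95% interval 4757 to 5516) in members and 181 CPM (95% interval 148 to 219.8) in granule-rich cells, a log2 ratio of 4.82 (95% interval 4.52 to 5.13) and of 5.01 over the 120 cells. Cxcl2 gave 1635 CPM against 99.4, and Ccl6 1047 against 57.6. Ifitm1 stood apart among the interferon-inducible genes, with 1455 CPM against 48.8, a log2 ratio of 4.90 (95% interval 4.32 to 5.52). St3gal6, a sialyltransferase, gave 18 UMIs in members and 1 in granule-rich cells. Jaml, an adhesion molecule for epithelial crossing, and Sirpb1b, a signal regulatory receptor, gave 229 and 222 CPM against 10.5 CPM each. H2-Q10, a class I molecule with close relatives in the same locus whose reads it may share, gave 251 CPM against 8.72, and the stefin genes Cstdc4 and Stfa2l1 complete the set.

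Whole lists gave the same picture with smaller medians. All 5 compared chemokine genes were higher in members (median 4.04), Ccl5 mostly through 1 cell, 7 of 11 pattern recognition genes were higher and 0 lower (median 1.85), and 7 of 11 chemoattractant receptor genes were higher and 1 lower (median 1.95), beside 14.3% and 19.4% of all genes. Hcar2, a receptor for hydroxybutyrate, gave 287 CPM against 26.2, and Ccr1 229 against 59.3. Interferon-inducible genes were closer, with 4 of 21 higher and 1 lower (median 0.52), and 9 of 21 higher over the 120 cells. Acod1 was at 14 UMIs in members and 0 in granule-rich cells, too few for a ratio under the filter. MHC class II genes took opposite directions with the 18 cells: 4 of 6 were higher in the 138 members (median 1.12) and 6 of 6 lower in the 120 (median -3.20). The 120 were chosen in part by few class II UMIs, so this reversal is not independent of the choice. Pla2g7, a phospholipase that breaks down platelet activating factor, gave 652 CPM against 43.6. Ptgs2, cyclooxygenase 2, gave 172 CPM against 10.5. Of 8 genes induced by tissue digestion 7 were higher in members (median 1.67), with Dusp1 at 3011 against 354 CPM and Egr1 at 480.4 against 45.4 CPM, and their part in the cytokine values was not tested. Of 9 cell division genes 8 were lower (median -2.07), with Top2a, topoisomerase 2α, at 35.8 (10.2 over the 120 cells) against 321 CPM.

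Against the monocyte-gated cells, members were set apart by the same granule products and by low levels of monocyte genes. Of 3341 genes compared, 950 (28.4%) were at least 2-fold higher in members and 871 (26.1%) at least 2-fold lower, with a median log2 ratio of 0.04. With CPM over all UMIs 519 were higher and 1303 lower. Mmp9 had the largest ratio, with 3097 CPM against 4.05, a log2 ratio of 9.58 (95% interval 7.72 to 12.63). G0s2, Wfdc21, Slfn4, Hdc and Fpr1 gave 1 to 5 UMIs in the 150 monocyte-gated cells and 48 to 703 in members. Cstdc4 and Lrg1 had 0 UMIs there and were at least 227-fold and at least 139-fold higher in members. Asprv1, a retroviral-like protease, gave 394 CPM against 2.02, and the glucose transporter gene Slc2a3 294 against 2.02.

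Genes lower than in the monocyte-gated cells included Ccr2, at 50.2 against 704 CPM, with 6 of its 7 UMIs in the 18 cells and 10.2 CPM over the 120. Others were F13a1, the A chain of coagulation factor XIII, at 7.17 against 229 CPM, and Fn1, fibronectin, at 21.5 against 297 CPM. Ms4a4c, Ms4a6b and Ms4a6d gave 1 to 2 UMIs each in members and 166 to 625 CPM in the monocyte-gated cells. Fbl, Cct2, Elane and Prtn3 were the other 4 of the 10. Csf1r, the macrophage growth factor receptor, was part of the monocyte gate and is not counted as a result. Interleukin 1β transcripts were also higher in members, with 540.3 CPM in the monocyte-gated cells and a log2 ratio of 3.25 (95% interval 3.04 to 3.45). Interferon-inducible genes were higher in 13 of 21 and lower in 1 (median 1.56), and MHC class II genes were lower in 4 of 7. Over the 120 cells, chosen in part by few class II UMIs, 6 of 7 were lower.

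The stefin A genes, which encode small inhibitors of cysteine proteases, were sparse and uneven. 10 of the family's genes lie within chromosome 16, 36119946 to 36455392 (GRCm38). Of 138 members 54 (39.1%) had a UMI of any of them, 317 UMIs in all, and 10 cells held 57.7%. Cstdc4 gave 192 UMIs in 28 members, Stfa2l1 65 in 29, Stfa1 26 in 9 and Cstdc5 20 in 4. Cstdc4 and Stfa2l1 were found together in 11 members, Cstdc4 alone in 17 and Stfa2l1 alone in 18. The granule-rich cells had 14 UMIs of Cstdc4, 16 of Stfa2l1 and 26 of Stfa1, and the monocyte-gated and T cell-gated cells had none. The last 300 bases of the longest coding transcripts were 68.7% to 98.7% identical between pairs of the 10 genes, and 5 of 45 pairs were at 90% or more. Stfa1, Cstdc5 and Cstdc6 were 97.5% to 98.7% identical, and Stfa2 and Stfa2l1 96.9%. Among the 5 compared genes of the list, which also holds the related Cstb, 4 were higher than in the rest and Cstb was at 294 against 261 CPM. How reads that fit 2 genes were counted is not given in the sources used here, and the split of UMIs between such genes is uncertain.

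The members differed among themselves in granule transcripts and Il1b. Members were ordered by the share of the tertiary granule and secretory vesicle list in their UMIs outside the gating genes. The lowest and highest tertile of the 120 cells without transcripts of other lineages, 40 cells each, were compared. Shares ran from 0% to 1.92% in the lowest tertile and from 3.78% to 7.34% in the highest, with the 40 cells between them left out. Il1b gave 10612 CPM (357 UMIs) in the lowest tertile and 1701 CPM (55 UMIs) in the highest, a log2 ratio of -2.64 (95% interval -3.08 to -2.23). Lcn2, which is not on the list, ran the other way, from 1099.9 to 13889 CPM, a log2 ratio of 3.66 (95% interval 3.17 to 4.18). The 2 tertiles differed in both genes by more than their counting error.

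Several other genes followed one or the other. Wfdc21 was at 1665 CPM in the lowest and 10332 CPM in the highest tertile, Ly6g at 89.2 and 866 CPM, and Cstdc4 at 535 and 2382 CPM. Among all 138 members, 21 had UMIs of both Cstdc4 and Il1b and 7 had Cstdc4 without Il1b. Higher in the lowest tertile were Nfkbia, the inhibitor induced by NF-κB, at 713 against 186 CPM, Egr1 at 565 against 92.8 CPM, and Gngt2, a G protein γ subunit, with 53 UMIs against 0. Cxcl2 (1486 and 1299 CPM), Clec4d (505 and 526 CPM) and Stfa2l1 (357 and 371 CPM) had intervals of the ratio that include no difference. Among the gating genes, taken over all UMIs, Retnlg followed the granule genes, with 4330.3 CPM in the lowest and 28474 CPM in the highest tertile, whereas Csf3r was at 1718 and 663 CPM. The rule used both genes, so these values are a description and no support for the difference between the tertiles. Cells of the lowest tertile were shallower (median 759 against 1505 UMIs), had a lower S100a8 and S100a9 share (median 13.3% against 40.2%) and more ribosomal protein UMIs (10.2% against 3.78%), and the part of depth in the difference was not tested.

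**Figure D4:**
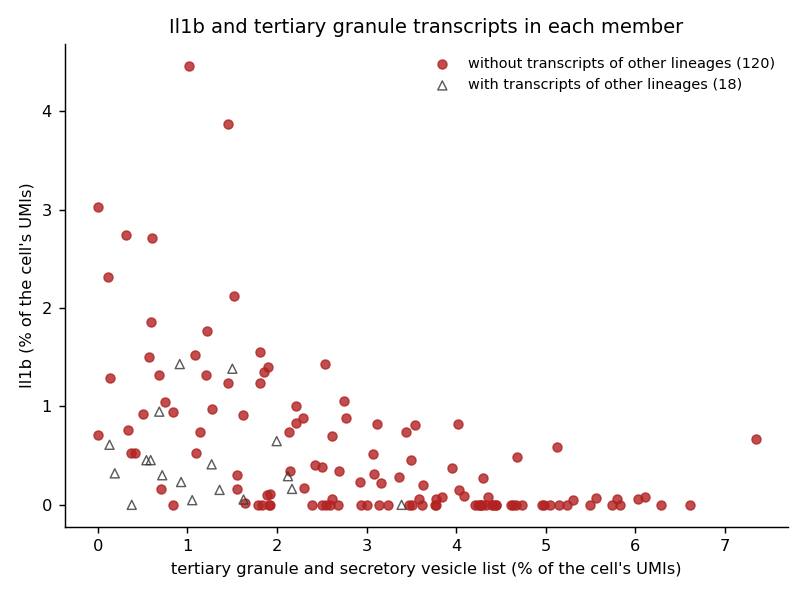
Each point is a member. The horizontal axis is the share of the 12 tertiary granule and secretory vesicle genes in its UMIs outside the gating genes. The vertical axis is the share of Il1b in all its UMIs. Circles are the 120 members without transcripts of other lineages and triangles the other 18. Shares of Il1b above 2% occur only at tertiary shares below 2%. The 2 denominators differ: only that of Il1b includes the gating genes. S100a8 and S100a9 had a median share of 13.3% in the lowest and 40.2% in the highest tertile of the 120. This lowers the plotted Il1b share most at high tertiary shares.

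**Figure D5:**
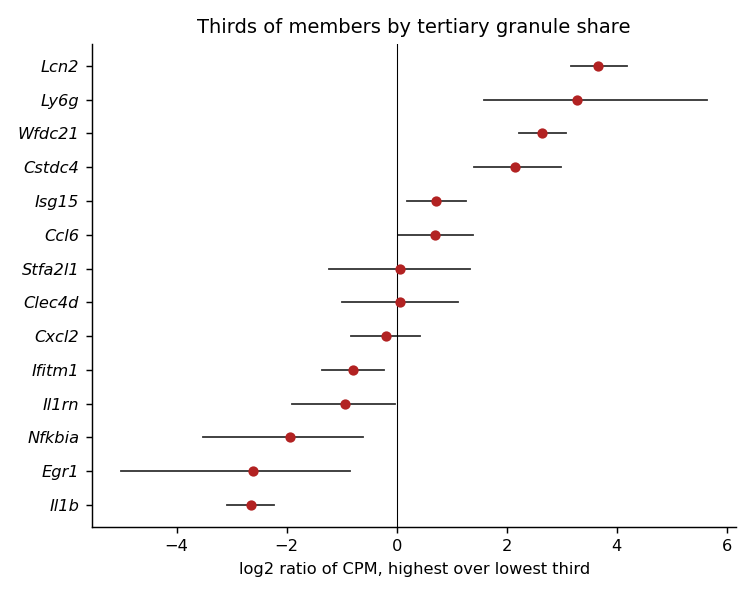
Log2 ratio of CPM, highest over lowest tertile of 120 members by tertiary granule share, with exact 95% counting intervals. Genes on the list are not shown. Lcn2, Ly6g, Wfdc21 and Cstdc4 lie right of 0, Il1b, Egr1 and Nfkbia left of it.

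Few cells lacked both programmes. Of 138 members 72 had UMIs of both Il1b and Mmp9, 21 of Il1b alone, 44 of Mmp9 alone and 1 of neither. For Il1b and Lcn2 the numbers were 55, 38, 43 and 2. The 120 cells were also split by the interferon list. Between the lowest and highest tertile of the 120 cells by its share, Cstdc4 ran from 589.9 to 3285 CPM, a log2 ratio of 2.48 (95% interval 1.75 to 3.28), and Ifi27l2a, which is not on the list, from 6653 to 27476 CPM. Mmp9 differed little, with 3867 and 4390.2 CPM, a log2 ratio of 0.18 (95% interval -0.18 to 0.54). Crip1, Ptma, Ppia and Tmsb10 were lower in the highest tertile under both splits, with log2 ratios of -3.96 (95% interval -5.88 to -2.54) by the tertiary list and -3.87 (95% interval -6.21 to -2.22) by the interferon list for Crip1. The highest tertile was deeper here too, with a median of 1505 against 831.5 UMIs.

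The rule's limits crossed a continuum of cells. The lowest member had an S100a8 and S100a9 share of 2.27% and the highest cell outside that met the other limits had 1.98%, the highest Camp, Ngp and Ltf share of a member was 0.963% and the lowest of a granule-rich cell 1.05%. Of the members 16 had exactly 2 UMIs of Retnlg, Csf3r and Cxcr2, 8 had 3 and 114 had 4 or more, and 119 had an S100a8 and S100a9 share of 10% or more. No UMI of Camp, Ngp or Ltf was present in 68 members, and 24 lay between 0.5% and 1%. A further 35 cells met both share limits with 0 (17 cells) or 1 UMI (18 cells) of Retnlg, Csf3r and Cxcr2. The 30 of them with fewer than 5000 UMIs had Il1b at 7711 CPM (95% interval 6766 to 8751), Acod1 at 643 CPM (393 to 992) and Mmp9 at 546 CPM (318 to 875). Ly6g was at 0 UMIs in these 30 cells and Cd74 at 3566 CPM, with a UMI in 10 cells.

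Transcripts free in the suspension can give UMIs in any droplet. The T cell-gated cells, with a median of 1327 UMIs, had an S100a8 UMI in 26.3% and an S100a9 UMI in 29.2% of cells. Il1b was found in 6.67% of them against 67.4% of members, Lcn2 in 3.49% against 71.0% and Mmp9 in 0.317% against 84.1%. Retnlg, a gating gene, was in 1.59% of them, and its 87.0% in members is bound to the rule. With cells thinned to 1000 UMIs the shares with an Il1b UMI were 6.74% and 49.4%, and those with an Mmp9 UMI 0% and 78.7%. Cd74 was the reverse, in 31.1% of T cell-gated cells, 29.0% of members and 22.5% of the 120 members, which were chosen in part by few Cd74 UMIs. The share of members with Cd74 thus did not stand above that of the T cell-gated cells. Those cells held the macrophage list at 628 CPM, against 445 CPM in members. Whether their Cd74 came from free transcripts was not tested. The comparison of shares does not cover amounts, since a single member held up to 330 MHC class II UMIs.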

How the data were processed

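Cells of the thymus were sorted on CD64 and sequenced with the 10x Genomics 3′ assay in 2 libraries. The authors deposited unnormalized UMI counts as gene-by-cell matrices, made with Cell Ranger 6.0.0 (2021) and 8.0.0 (2024) per the file headers, on mm10 per the submitters' processing notes. The annotation release is not given in the sources used here. All gene values come from the 2021 library. For 2024 no gene list was used, and only its depth is given.

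From the counts, cells were filtered and grouped as described, with Python 3.11.15, numpy 2.4.6 and scipy 1.17.1, and clustered with scanpy 1.11.5. Sets were compared by summed counts outside the gating genes. Genes needed 15 UMIs in both sets together and 50 CPM in either, and at least 2-fold was counted. Intervals are exact (Poisson for CPM, Clopper-Pearson for shares, conditional binomial for ratios). A set with 0 UMIs was taken at 3 counts in a ratio. No p-values were computed, since there is 1 library. The ratio code was tested on simulated data. Scrublet called 3 cells (0.0941%), which is too few for it to have worked, and no doublets were removed.

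The members and lists were chosen with earlier results of these data known. Named genes were the 20 with the largest ratio over the rest (100 CPM, UMI in 10% of members) and the 10 with the smallest, and 10 in each direction for the other comparisons, without gating, ribosomal, mitochondrial, antigen receptor and unnamed genes. Gene positions are from GENCODE, promoters from RefSeq (GRCm38.p6). The files pair IDs with symbols. Alternatives covered the gate limits, depth, scaling, filters, doublets and the make-up of the rest.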

Additional observations from a re-analysis of the deposited data

How the results depend on the processing

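All gene values rest on 1 library, so neither animals nor libraries could be left out. No paired analysis was possible because the labels give 1 group and gene values from 1 library. Over 15 other settings, 1 of 970 values of named genes changed sign. Of 846 list medians 17 did, 5 of them where the main median was at least 1 in size, and these 5 are given here. The number of members was 114 with Camp, Ngp and Ltf under 0.5%, 114 with 4 or more UMIs of Retnlg, Csf3r and Cxcr2, and 89 among cells of 1000 UMIs or more. Thinned to 1000 UMIs, 239 genes were higher than in granule-rich cells and 442 higher than in monocyte-gated cells. With CPM over all UMIs, 595 genes were higher than in the rest, 194 lower than in granule-rich cells and 519 higher than in monocyte-gated cells. Without the CPM filter, 4088 were higher and 1804 lower than in the rest, and 1155 lower than in granule-rich cells, since more genes were compared. With the rest taken as the median over its clusters, the log2 ratio of Jchain became 4.30, with members at the 3-count floor, and the list medians became 1.76 for chemokines, 0.42 for MHC class II and 0.20 for cell division. Against granule-rich cells, the MHC class II median was -3.20 without the 18 members, which were set apart in part by class II UMIs. It was -1.40 with an S100a8 and S100a9 share of at least 10%. The causes were not tested. These 2 settings, and the tertiles of the 120 members, were chosen after seeing the data. Median-of-ratios scaling lowered log2 ratios over the rest by 0.20. Genes with 1 to 4 UMIs in members have intervals that span several log2 units, and 49 of 138 members had fewer than 1000 UMIs.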
